A study of Mus musculus with 6 samples.

Results

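The insulin-like growth factor (IGF) axis was described by 10 genes, chosen by name from its ligands, receptors, receptor substrates and binding proteins, out of 52636 genes in the count table. They are the ligand gene Igf1, the receptor genes Igf1r, Insr and Igf2r, the receptor substrate genes Irs1 and Irs2, and the binding protein genes Igfbp2, Igfbp3, Igfbp4 and Igfbp5. Their RNA was measured in 3 biological replicates of J110 cells and 3 of SSM3 cells, both mouse mammary tumour lines in culture. J110 cells derive from a mammary tumour of mice that carry the cDNA of AIB1, an estrogen receptor coactivator, under the MMTV long terminal repeat, a promoter active in mammary epithelium. SSM3 cells derive from a mammary tumour of genetically altered 129SvEv mice. Each line is a single established culture, and neither was given a treatment in these samples. Both media held insulin and hydrocortisone, while the SSM3 medium held more serum, β-mercaptoethanol, transferrin and glutamine and was kept at a higher level of CO2, so line, genotype and culture conditions cannot be told apart.

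IGF-1 and IGF-2 are secreted growth factors that bind IGF1R, a receptor tyrosine kinase, and a splice form of the insulin receptor binds IGF-2 as well. IGF2R has no kinase and carries IGF-2 to the lysosome. Activated IGF1R and insulin receptor phosphorylate IRS1 and IRS2, which recruit PI3K and so activate AKT and mTOR and restrain FOXO factors. Secreted IGF binding proteins hold the ligands outside the cell, and proteases that cut them set the ligands free. In the mammary gland, growth hormone raises IGF-1 in the stroma and IGF-1 acts on the epithelium during duct growth, whereas IGFBP5 is a product of the involuting gland.

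Total counts per library were between 4200785 and 5416305, and 3 counts, taken as the floor, corresponded to between 0.578 and 0.668 CPM, counts relative to the scaled library total. The libraries were made from 3′ ends of transcripts, so CPM values were not divided by length and levels are compared between lines, not between genes. Epcam, an epithelial adhesion gene, had 2, 1 and 7 counts in J110 and 2376, 2404 and 2412 in SSM3, and Cdh1, which encodes E-cadherin, was at 4.02 CPM in J110 and 1374 in SSM3, whereas the epithelial keratin gene Krt8 was at 1275 and 2270 CPM and Krt18 at 1430 and 970.0. Krt19, another epithelial keratin gene, was at 18.6 CPM in J110 and 7412 in SSM3. Of the 5 epithelial markers listed, Epcam and Cdh1 were thus near absent from J110, whereas Krt8 and Krt18 were well counted in both lines. Genes expressed in one line alone had a few counts in libraries of the other. This was widest in J110 replicate 3, where 47 of 57 such genes were counted, summing to 0.257% of their SSM3 level, and in SSM3 replicate 2, where 43 of 44 were, summing to 0.404% of their J110 level. In the other 4 libraries the level was between 0.0490% and 0.146%. Ncoa3, which encodes AIB1, had 110, 106 and 102 counts in J110 and 181, 199 and 186 in SSM3. The 3′ end of the transgene is not given in the sources used here, so these 3′ counts do not check the labels.

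Of the 10 genes, 7 passed the filter on low counts and were tested, and all 7 passed the threshold of 0.05 on the adjusted p of edgeR's quasi-likelihood test, 2 higher in SSM3 (Insr and Irs1) and 5 lower (Igf1r, Igf2r, Irs2, Igfbp3 and Igfbp4). Among all 12284 genes tested 9566 passed, which is 77.9%, with 38.6% higher in SSM3 and 39.2% lower, so a passed test was the usual case in this comparison and the size of each change tells more. With library size only in place of TMM scaling, 5373 genes were higher and 4140 lower, against 4746 and 4820 here. A change of at least 4-fold that passed the test was found in 4 of the 7 genes, Igf1r, Irs2, Igfbp3 and Igfbp4, against 21.7% of all genes tested. The values of the lines did not overlap for any of the 7, as for 79.6% of all genes tested. The 3 genes left out of the test, Igf1, Igfbp2 and Igfbp5, had at most 17 counts in any library. As both lines are bulk cultures, fewer cells with a transcript and less RNA per cell cannot be told apart.

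**Figure D1:**
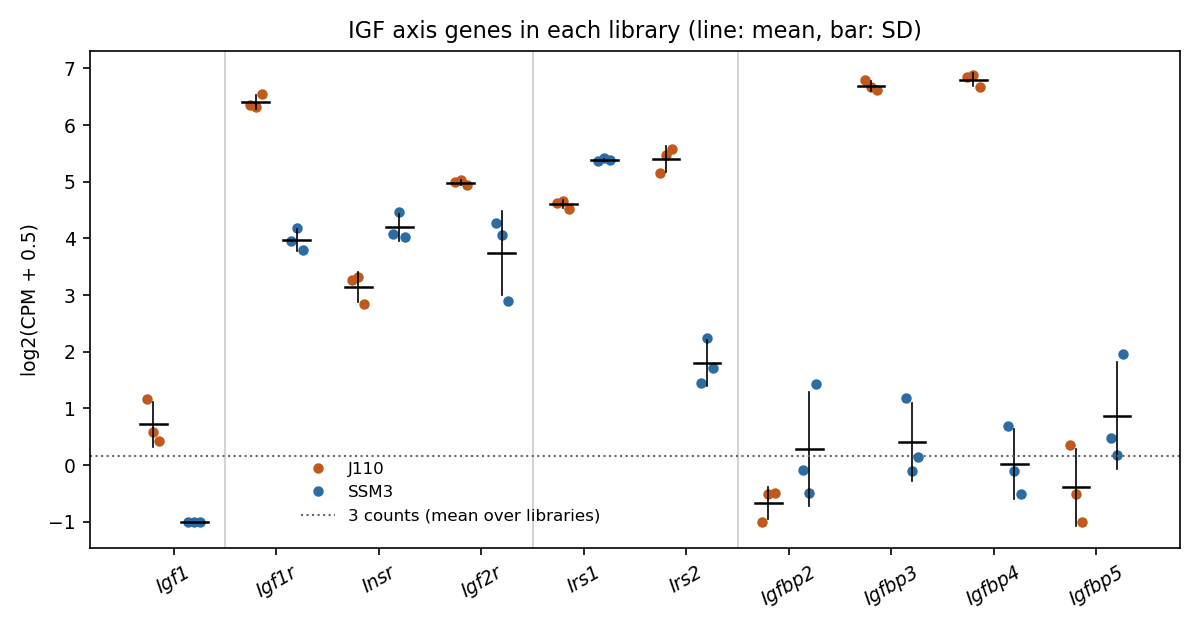
Levels of the 10 IGF axis genes in each library as log2(CPM + 0.5), with 3 J110 and 3 SSM3 libraries per gene, a line at the mean and a bar of 1 SD, ordered as ligand, receptors, substrates and binding proteins. Igfbp3 and Igfbp4 lie far above the dotted line of 3 counts in J110 and close to it in SSM3, Irs1 and Irs2 move in opposite directions, and Igfbp2 and Igfbp5 lie near that line in both.

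Of the ligands, Igf1 (ENSMUSG00000020053, chr10:87858265-87937042 of mm10, plus strand) was low throughout. It had 9, 5 and 4 counts in J110, or 1.19 ± 0.482 CPM (SD, n = 3), and 0 counts in all 3 SSM3 libraries, which allows up to 3 counts in each. The lines did not overlap, and against that floor Igf1 was at least 1.87-fold lower in SSM3. In a fit without the filter on low counts, over 22592 genes, its adjusted p was 0.000156 (edgeR's quasi-likelihood test), and between 0.000444 and 0.00549 when each library was left out of that fit in turn. Igf2, the gene of the second ligand and no member of the 10, had 3, 1 and 3 counts in J110 and 2002, 1921 and 1956 in SSM3, or 0.467 ± 0.235 and 414 ± 28.8 CPM (SD, n = 3). Its level in SSM3 was therefore at least 691-fold that in J110 (adjusted p = 8.67e-17, edgeR's quasi-likelihood test). At the level of other-line counts seen in each J110 library, 1.58, 1.03 and 5.10 counts of Igf2 were expected there, where 3, 1 and 3 were seen. Igf2 lies within Gm49394, which shares 3596 exon bases with it on the same strand and has no row in the table. Its antisense gene Igf2os shares 98 bases and had 0 counts in J110 and 15, 24 and 29 in SSM3. The insulin gene Ins1 did not exceed the floor in either line, and Ins2 and the receptor gene Insrr had no count.

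The receptor genes differed in opposite directions. Igf1r (ENSMUSG00000005533, chr7:67952827-68233668, plus strand), which encodes the receptor kinase for both IGFs, had 423, 400 and 444 counts in J110 and 67, 83 and 67 in SSM3. All J110 libraries lay far above all SSM3 libraries, at 84.4 ± 7.22 and 15.3 ± 2.17 CPM (SD, n = 3), or a log2 fold change of -2.46 in SSM3 relative to J110 (standard error, SE, 0.12, adjusted p = 1.31e-11, edgeR's quasi-likelihood test). Of all genes tested, 17.5% changed by at least as much. Insr (ENSMUSG00000005534, chr8:3122061-3279617, minus strand), the insulin receptor gene, went the other way, with 47, 48 and 32 counts in J110 and 74, 102 and 79 in SSM3, or 8.41 ± 1.52 and 18.0 ± 3.23 CPM (SD, n = 3). The ranges did not overlap, and its log2 fold change was 1.09 (SE 0.20, adjusted p = 8.84e-05, edgeR's quasi-likelihood test), a size that 41.0% of all genes tested reached.

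Igf2r (ENSMUSG00000023830, chr17:12682406-12769664, minus strand), the gene of the IGF-2 scavenger receptor, had 162, 162 and 144 counts in J110 and 84, 76 and 35 in SSM3, or 31.1 ± 1.002 and 13.9 ± 6.17 CPM (SD, n = 3). SSM3 was lower in every library, but SSM3 replicate 3 lay well below the other two, and the coefficient of variation in SSM3 was 44.3% where counting error alone gives 12.4%. The log2 fold change was -1.17 (SE 0.23, adjusted p = 1.70e-04, edgeR's quasi-likelihood test), from -1.44 without SSM3 replicate 1 to -0.84 without SSM3 replicate 3. Airn, a long noncoding RNA transcribed from within Igf2r on the opposite strand and known for silencing the paternal Igf2r allele in mouse, shares 0 exon bases with it. Airn had 31, 35 and 43 counts in J110 and 0, 1 and 0 in SSM3, so it was at least 11.5-fold lower in SSM3 (adjusted p = 5.42e-08, edgeR's quasi-likelihood test). Both transcripts of the locus were thus lower in SSM3.

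The receptor substrate genes also parted. Irs1 (ENSMUSG00000055980, chr1:82233101-82291416, minus strand) encodes one of the docking proteins of both receptors. It had 125, 125 and 108 counts in J110 and 183, 198 and 207 in SSM3, or 23.8 ± 1.13 and 41.3 ± 0.659 CPM (SD, n = 3), and the tight ranges of the lines did not overlap. Its log2 fold change was 0.80 (SE 0.11, adjusted p = 7.80e-06, edgeR's quasi-likelihood test), a modest size that 52.0% of all genes tested reached. Gm9747, annotated on the opposite strand inside the last exon of Irs1, shares 2822 bases with it and had 120, 118 and 99 counts in J110 and 177, 189 and 193 in SSM3. In every library its counts amounted to between 91.7% and 96.7% of those of Irs1. As the strand setting of the counting is not given in the sources used here, reads of Irs1 and Gm9747 cannot be told apart, and the value of Irs1 is uncertain to that extent.

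Irs2 (ENSMUSG00000038894, chr8:10984681-11008458, minus strand), the gene of the other main docking protein, had 181, 223 and 226 counts in J110 and 10, 20 and 14 in SSM3, or 42.1 ± 6.39 and 3.09 ± 1.04 CPM (SD, n = 3). The lowest J110 library lay far above the highest SSM3 library. The log2 fold change was -3.75 (SE 0.21, adjusted p = 8.56e-11, edgeR's quasi-likelihood test), and 12.3% of all genes tested changed by at least as much. The level of other-line counts gives 0.276, 0.801 and 0.240 counts of Irs2 in the SSM3 libraries, where 10, 20 and 14 were seen, and the part of such reads was not tested. An antisense gene, 9530052E02Rik, shares 162 bases with Irs2 and had 2 counts in J110 replicate 1 and 0 in every other library.

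The sequence just upstream of the start sites of Irs1 and Irs2 is shown because these related genes moved in opposite directions, together with that of Igf1r, which fell with Irs2. The sequences are the 250 bases before the RefSeq start site in GRCm38.p6, the mm10 assembly, read 5′ to 3′ along the gene, at chr7:67952007-67952256 on the plus strand for Igf1r, chr1:82291440-82291689 on the minus strand for Irs1 and chr8:11008930-11009179 on the minus strand for Irs2. Capitals mark GGGCGG, the core of the SP1 motif, on either strand.
Igf1r: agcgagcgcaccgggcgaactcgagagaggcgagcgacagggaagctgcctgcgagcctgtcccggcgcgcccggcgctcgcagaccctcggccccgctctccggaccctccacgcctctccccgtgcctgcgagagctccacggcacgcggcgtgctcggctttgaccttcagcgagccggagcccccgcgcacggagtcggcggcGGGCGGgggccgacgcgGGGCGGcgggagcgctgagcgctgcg
Irs1: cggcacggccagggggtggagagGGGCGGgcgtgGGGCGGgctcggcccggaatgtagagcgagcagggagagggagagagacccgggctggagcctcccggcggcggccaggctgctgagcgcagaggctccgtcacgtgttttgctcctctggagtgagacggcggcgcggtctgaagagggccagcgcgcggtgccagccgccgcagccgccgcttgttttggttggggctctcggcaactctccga
Irs2: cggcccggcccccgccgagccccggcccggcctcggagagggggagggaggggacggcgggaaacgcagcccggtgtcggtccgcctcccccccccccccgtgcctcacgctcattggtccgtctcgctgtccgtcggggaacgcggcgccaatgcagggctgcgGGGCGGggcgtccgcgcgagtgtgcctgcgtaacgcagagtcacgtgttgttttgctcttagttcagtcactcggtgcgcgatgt
The motif stood 43 and 26 bases before the start in Igf1r, 227 and 216 bases before it in Irs1, and 85 bases before it in Irs2. Of the 32851 RefSeq windows from 250 bases before to 50 after a start, 35.7% held it. Guanine and cytosine made up 76% of the window of Igf1r, 71.3% of that of Irs1 and 72% of that of Irs2, against a median of 52.7% over all windows. None of these 3 windows held a STAT5-type motif (TTCNNNGAA, in 8.30% of all windows), an AP-1 motif (TGANTCA, 7.81%), a FOXO motif (TGTTTAC, 3.65%), an estrogen response element (the consensus palindrome, 0.0700%) or a TATA box (TATAAA, 13.6%), each searched on both strands.

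Ratios within a library do not depend on how libraries are scaled to each other. The counts of Igf1r were 8.92, 8.26 and 13.7 times those of Insr in J110 and 0.906, 0.815 and 0.849 times those of Insr in SSM3, with 0.5 added to each count. On the log2 scale the ratio was 3.33 ± 0.39 in J110 and -0.22 ± 0.077 in SSM3 (SD, n = 3), a difference of 11.7-fold. The ratio was lower in every SSM3 library than in any J110 library, and only this difference between the lines is read from it, since counts are not compared between genes.

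The ratio of Irs1 to Irs2 was 0.691, 0.562 and 0.479 in J110 and 17.5, 9.68 and 14.3 in SSM3, which is -0.81 ± 0.27 and 3.75 ± 0.43 on the log2 scale (SD, n = 3), a difference of 23.5-fold. The ratio was higher in every SSM3 library than in any J110 library. The ratio of Igf1r to Igf2r was 2.61, 2.46 and 3.08 in J110 and 0.799, 1.09 and 1.90 in SSM3, a difference of 2.28-fold, with the highest SSM3 value in replicate 3, the library low in Igf2r. The lines did not overlap in any of the 3 ratios, and the exact two-sided permutation test gave p = 0.1 for each, the smallest that 3 against 3 libraries allow, and 0.1 after Benjamini-Hochberg adjustment over the 3.

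**Figure D2:**
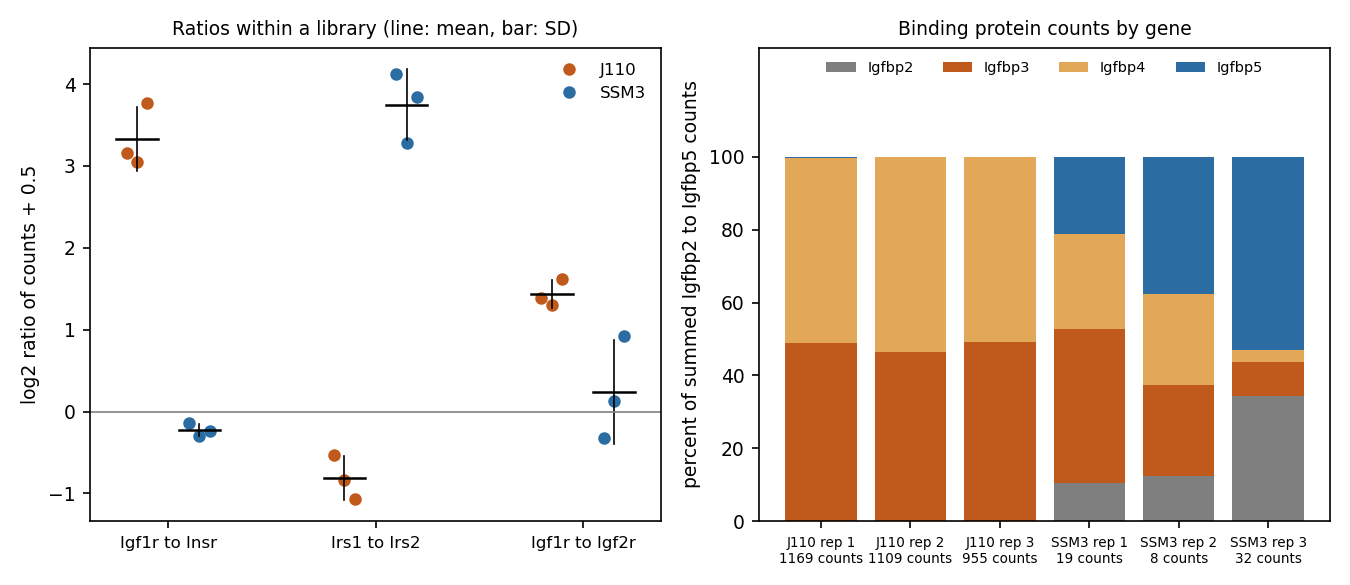
Left, log2 ratios of the counts (0.5 added) of 3 pairs of IGF axis genes in each library, with a line at the mean and a bar of 1 SD; right, the percent of the summed Igfbp2 to Igfbp5 counts that each gene took in each library, with the summed counts below. The ratio of Igf1r to Insr is lower and that of Irs1 to Irs2 higher in every SSM3 library, and the shares in SSM3 rest on 19, 8 and 32 counts.

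The largest changes among the 10 genes were in Igfbp3 and Igfbp4. Igfbp3 (ENSMUSG00000020427, chr11:7206086-7213923, minus strand) encodes the main carrier of IGFs in serum. It had 571, 514 and 469 counts in J110 and 8, 2 and 3 in SSM3, or 103 ± 6.25 and 0.934 ± 0.739 CPM (SD, n = 3). Its log2 fold change was -6.78 (SE 0.21, adjusted p = 3.21e-14, edgeR's quasi-likelihood test), between -7.58 (without SSM3 replicate 1) and -6.44 when each library was left out in turn, and 6.34% of all genes tested changed by at least as much. Igfbp4 (ENSMUSG00000017493, chr11:99041244-99054392, plus strand) encodes a binding protein that mainly inhibits IGF action and is freed of its ligand by the protease PAPP-A. It had 594, 593 and 485 counts in J110 and 5, 2 and 1 in SSM3, or 111.0 ± 8.60 and 0.579 ± 0.476 CPM (SD, n = 3).

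The log2 fold change of Igfbp4 was -7.56 (SE 0.22, adjusted p = 1.35e-14, edgeR's quasi-likelihood test), between -8.38 (without SSM3 replicate 1) and -7.14 when each library was left out in turn, a size that 4.55% of all genes tested reached. Both genes were therefore near the floor in SSM3 and well counted in J110, with no overlap between the lines. In SSM3 replicate 2 the level of other-line counts gives 1.97 counts of Igfbp3 and 2.11 of Igfbp4, where 2 and 2 were seen. In SSM3 replicate 1 it gives 0.677 and 0.728, where 8 and 5 were seen, and in SSM3 replicate 3 it gives 0.588 and 0.633, where 3 and 1 were seen. The part of such reads in the SSM3 values was not tested.

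The upstream sequences of Igfbp3 and Igfbp4 are shown because these genes fell together and both lie on chromosome 11, far apart. They are again the 250 bases before the RefSeq start in GRCm38.p6, at chr11:7213924-7214173 on the minus strand and chr11:99040994-99041243 on the plus strand, and capitals mark the TATA box TATAAA on either strand.
Igfbp3: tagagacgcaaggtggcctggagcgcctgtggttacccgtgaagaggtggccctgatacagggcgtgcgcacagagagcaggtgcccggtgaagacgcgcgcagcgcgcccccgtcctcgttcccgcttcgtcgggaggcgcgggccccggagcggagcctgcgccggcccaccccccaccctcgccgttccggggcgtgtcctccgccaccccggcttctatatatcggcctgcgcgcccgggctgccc
Igfbp4: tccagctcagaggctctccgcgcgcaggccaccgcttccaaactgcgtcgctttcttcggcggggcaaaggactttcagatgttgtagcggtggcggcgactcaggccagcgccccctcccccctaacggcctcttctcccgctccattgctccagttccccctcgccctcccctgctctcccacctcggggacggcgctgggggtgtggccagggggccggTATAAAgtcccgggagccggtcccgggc
The TATA box of Igfbp4 lay 28 bases before the start. The window of Igfbp3 held none of the 6 motifs as spelled in the search, and that of Igfbp4 held no other. Only the exact letters TATAAA were searched for the TATA box. The similar stretch tatatat in the Igfbp3 sequence was therefore not counted, and a TATA box of other spelling is not excluded there. The share of guanine and cytosine was 71.7% for Igfbp3 and 71.3% for Igfbp4, so the windows were alike in base composition while only that of Igfbp4 held the exact letters TATAAA.

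Igfbp2 and Igfbp5 were low in both lines. Of Igfbp2 (ENSMUSG00000039323, chr1:72824503-72852474, plus strand) there were 0, 1 and 1 counts in J110 and 2, 1 and 11 in SSM3. Igfbp5 (ENSMUSG00000026185, chr1:72857932-72874884, minus strand), the binding protein gene of involution, had 4, 1 and 0 counts in J110 and 4, 3 and 17 in SSM3. SSM3 replicate 3 alone stood out for both, and the values of the lines overlapped in Igfbp5 and met at 1 count in Igfbp2. The ratio of pooled CPM, SSM3 over J110, was 7.40 for Igfbp2 (95% counting interval 1.70 to 67.1) and 5.07 for Igfbp5 (1.90 to 17.02), intervals that cover counting error only. In the fit without the filter the adjusted p was 0.0170 for Igfbp2 and 0.00306 for Igfbp5 (edgeR's quasi-likelihood test). Without SSM3 replicate 3 it was 0.580 for Igfbp2 and 0.404 for Igfbp5. Without J110 replicate 3 it was 0.0833 and 0.113, and for Igfbp2 without J110 replicate 1 it was 0.0855. A difference in these 2 genes was therefore not established at this depth. The genes lie tail to tail, 5457 bp apart, with 0 genes between them.

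The composition of the binding protein counts differed accordingly. In J110, Igfbp3 made up 48.1 ± 1.52% and Igfbp4 51.7 ± 1.54% (SD, n = 3) of the summed Igfbp2 to Igfbp5 counts, which were 1169, 1109 and 955. In SSM3 the sums were only 19, 8 and 32 counts, and the shares were 19.1 ± 13.2% for Igfbp2, 25.5 ± 16.4% for Igfbp3, 18.1 ± 13.0% for Igfbp4 and 37.2 ± 16.0% for Igfbp5 (SD, n = 3). The shares in SSM3 varied so much between libraries that no order among the 4 genes can be read there.

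Igfbp7, whose product binds IGFs weakly, was also lower in SSM3, with 1221, 1374 and 1115 counts in J110 and 50, 43 and 50 in SSM3, a log2 fold change of -4.61 (SE 0.12, adjusted p = 2.56e-15, edgeR's quasi-likelihood test). Polr2b shares 85 bases with Igfbp7 on the opposite strand and had 1136, 1229 and 1047 counts in J110 and 188, 185 and 193 in SSM3, so reads of the 2 genes may have been counted for both and the value of Igfbp7 is uncertain. Igfals, the gene of the acid-labile subunit that joins IGFBP3 and IGF in serum, went the other way. It had 0 counts in J110 and 28, 34 and 33 in SSM3, so it was at least 11.1-fold higher (adjusted p = 6.02e-08, edgeR's quasi-likelihood test). The other binding protein genes on the list were not tested, as Igfbp1 and Igfbpl1 had no count and Igfbp6 did not exceed the floor in either line.

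**Figure D3:**
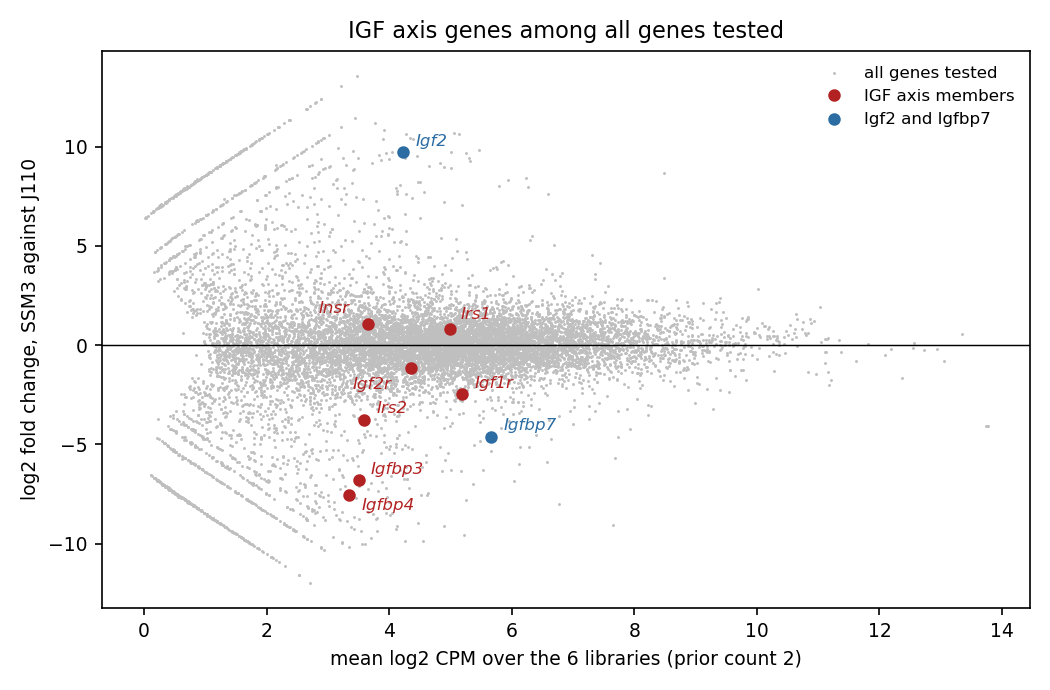
Log2 fold change, SSM3 against J110, against mean log2 CPM over the 6 libraries for each of the 12284 genes tested (grey), with the 7 tested IGF axis genes in red and Igf2 and Igfbp7 in blue; the fold change of Igf2 depends on the prior count, since J110 was at the floor. Igfbp3 and Igfbp4 lie far below the bulk of genes, while Insr, Irs1 and Igf2r lie within it.

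Proteases that cut IGF binding proteins, and inhibitors of such proteases, changed in either direction. Of 8 genes listed 4 were tested, 1 higher and 3 lower in SSM3, where 38.6% of all genes tested were higher and 39.2% lower. Their median log2 fold change was -7.76 (-7.05 with genes at the floor set to their bound) against -0.014 for all genes tested. Stc1 and Stc2 encode the stanniocalcins, inhibitors of the IGFBP4 protease PAPP-A. Stc1 had 1045, 952 and 871 counts in J110 and 0, 4 and 0 in SSM3, a log2 fold change of -9.28 (SE 0.26, adjusted p = 9.31e-15, edgeR's quasi-likelihood test) that ranged from -12.87 (without SSM3 replicate 2) to -8.69 (without SSM3 replicate 3) when each library was left out. Stc2 had 12, 11 and 15 counts in J110 and 286, 341 and 359 in SSM3, a log2 fold change of 4.76 (SE 0.17, adjusted p = 1.49e-13, edgeR's quasi-likelihood test). The stanniocalcin genes thus changed in opposite directions, and Stc1 was near absent from SSM3 while Stc2 was counted in both lines. Pappa and Pappa2 themselves did not exceed the floor in either.

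Htra1, a secreted serine protease that cuts binding proteins, had 440, 439 and 468 counts in J110 and 2, 3 and 4 in SSM3, a log2 fold change of -7.09 (SE 0.20, adjusted p = 8.81e-15, edgeR's quasi-likelihood test). Adam12, a metalloprotease that cuts IGFBP3 and IGFBP5, had 455, 411 and 358 counts in J110 and 2, 1 and 0 in SSM3, so it was at least 128-fold lower (adjusted p = 4.22e-14, edgeR's quasi-likelihood test). Both proteases were thus well counted in the line that held the counts of Igfbp3 and Igfbp4. Of the IGF2 mRNA binding proteins, which control the stability and translation of Igf2 and other RNAs, 2 of 3 listed were tested and both were lower in SSM3, as were 39.2% of all genes tested. Igf2bp1 had 229, 217 and 218 counts in J110 and 1, 1 and 6 in SSM3 (log2 fold change -6.23, SE 0.28, adjusted p = 4.09e-12, edgeR's quasi-likelihood test), with a log2 fold change of -7.50 without SSM3 replicate 3. Igf2bp2 was at 79.7 CPM in J110 and 35.1 in SSM3 (log2 fold change -1.18, SE 0.095).

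Among 16 receptor adaptors and inhibitors, 13 were tested and all passed, 8 higher and 5 lower in SSM3, where 77.9% of all genes tested passed, 38.6% higher and 39.2% lower. The median log2 fold change of the list was 1.10. Ptpn1, the phosphatase that dephosphorylates the insulin receptor, was at 62.1 CPM in J110 and 299 in SSM3 (log2 fold change 2.27, SE 0.079, adjusted p = 1.48e-13, edgeR's quasi-likelihood test). The adaptor genes Grb2 and Shc1, which link receptors to RAS, changed by less, with log2 fold changes of 0.65 and -0.91. Grb7, an adaptor that binds the insulin receptor and ERBB2, had 0, 0 and 3 counts in J110 and 452, 519 and 539 in SSM3, at least 177-fold higher (adjusted p = 2.89e-14, edgeR's quasi-likelihood test). Enpp1, an ectoenzyme that inhibits the insulin receptor, had 200, 154 and 160 counts in J110 and 3, 5 and 4 in SSM3 (log2 fold change -5.30, SE 0.25). The docking protein gene Gab1 and the adaptor gene Sh2b2 were higher in SSM3, with log2 fold changes of 2.86 and 2.76. Irs3 and Irs4 had no count and Grb10 did not exceed the floor in either line.

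The PI3K, AKT, mTOR and FOXO list moved in both directions. Of 27 genes 26 were tested, 10 higher, 11 lower and 5 not past the threshold, so 80.8% were called against 77.9% of all genes tested, with a median log2 fold change of -0.18. Pik3r3, a regulatory subunit of PI3K, was at 4.39 CPM in J110 and 67.6 in SSM3 (log2 fold change 3.94, SE 0.15, adjusted p = 3.30e-13, edgeR's quasi-likelihood test), and the catalytic subunit gene Pik3ca fell by 0.62 on the log2 scale. Gm49337 shares 1289 exon bases with Pik3r3 on the same strand. It had 5, 1 and 4 counts in J110 and 8, 17 and 14 in SSM3, so reads of the shared bases cannot be assigned to either gene. Inpp4b, a phosphatase that removes PI3K products, had 124, 139 and 145 counts in J110 and 2, 1 and 0 in SSM3, at least 42.9-fold lower (adjusted p = 3.45e-11, edgeR's quasi-likelihood test). The kinase gene Akt2 was at 50.2 CPM in J110 and 181 in SSM3 (log2 fold change 1.85, SE 0.093), Akt1 changed by 0.59 and the forkhead factor gene Foxo4 by 1.77. Mtor, the kinase gene downstream of AKT, was named after its values were seen, and had a log2 fold change of -1.08. Among the genes not past the threshold were Phlpp1, Phlpp2, Tsc2 and Eif4ebp1.

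Growth hormone acts through its receptor, JAK2 and STAT5, and STAT5 raises Igf1 in liver and stroma and Socs2 and Cish in many cells. All 6 genes of this input were tested, of which 5 were higher in SSM3, 0 were lower and 1 did not pass, or 83.3% called against 77.9% of all genes tested, of which 38.6% were higher. The list's median log2 fold change was 2.76. Ghr, the receptor gene, was at 21.1 CPM in J110 and 24.3 in SSM3 (log2 fold change 0.20, SE 0.17, adjusted p = 0.300, edgeR's quasi-likelihood test), with an adjusted p of 0.0201 without SSM3 replicate 3. Jak2 was at 32.0 CPM in J110 and 394 in SSM3 (log2 fold change 3.62, SE 0.086, adjusted p = 1.53e-15, edgeR's quasi-likelihood test). Stat5a was at 5.22 CPM in J110 and 113 in SSM3 (log2 fold change 4.42, SE 0.14, adjusted p = 5.78e-14, edgeR's quasi-likelihood test), although it shares 72 bases with Stat3 on the opposite strand, which had up to 1386 counts in SSM3.

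Stat5b changed by 1.86 on the log2 scale. Socs2 and Cish, feedback inhibitors of this route, were at 183 and 1.46 CPM in J110 and 683 and 47.3 in SSM3, with log2 fold changes of 1.90 and 4.99. The antisense gene Gm17041 shares 479 bases with Cish and had up to 99 counts in SSM3, so part of the counts of Cish may be shared with it. These genes also serve prolactin and cytokine receptors, and the list is not particular to growth hormone. Over all pathway lists 54 of 69 genes were tested, 26 higher, 22 lower and 6 not past the threshold, or 88.9% called against 77.9% of all genes tested, with a median log2 fold change of 0.25.

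**Figure D4:**
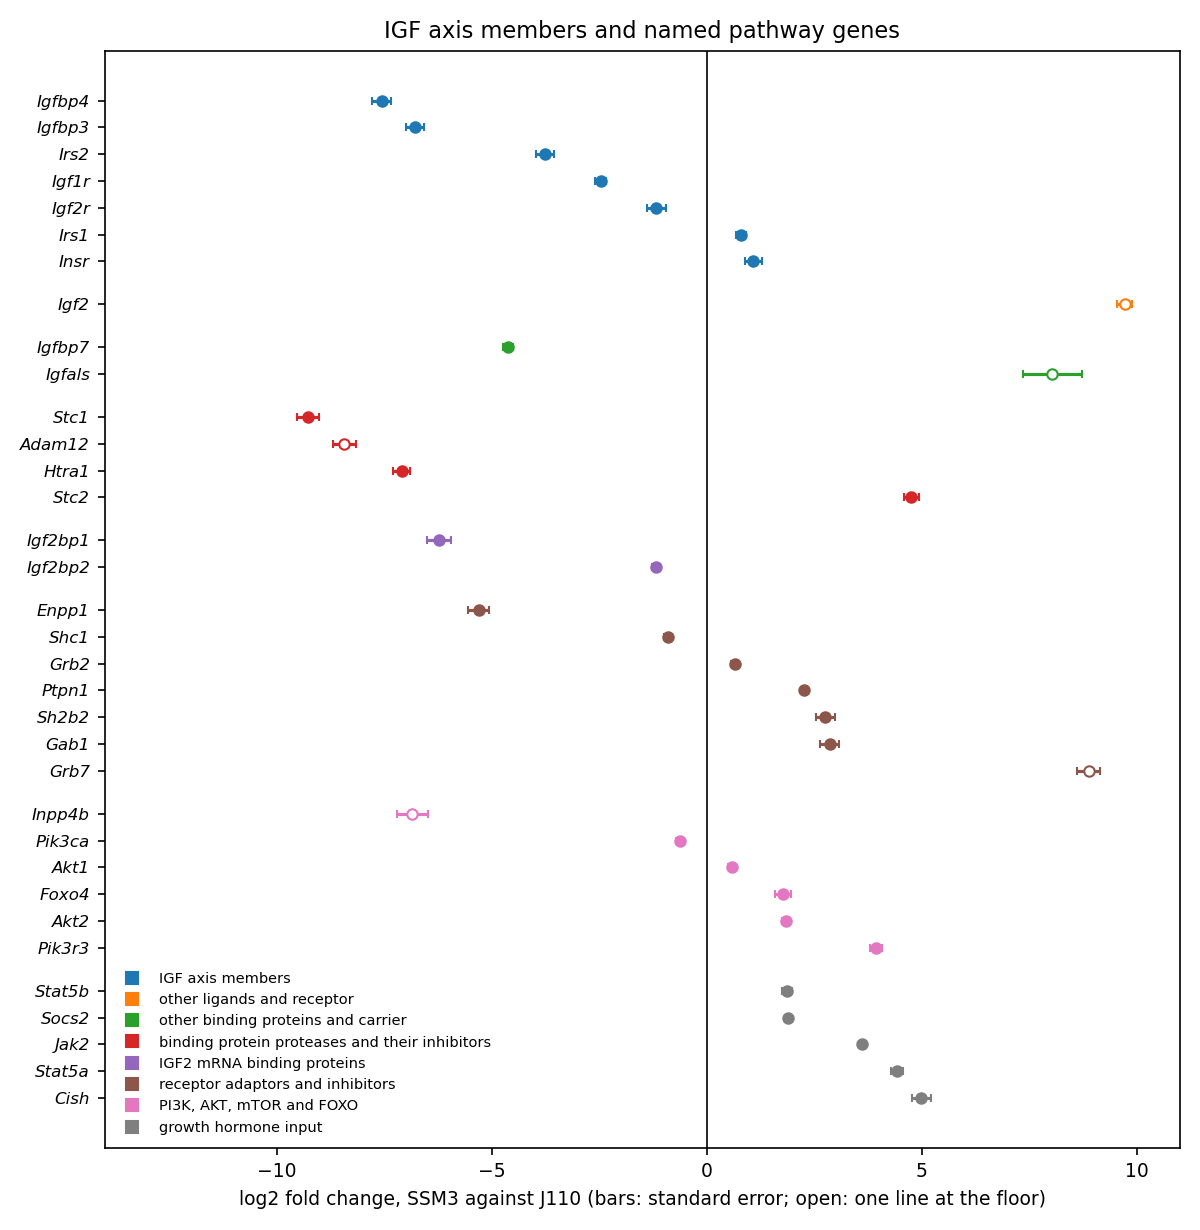
Log2 fold change, SSM3 against J110, with bars of 1 standard error from edgeR's quasi-likelihood fit, for the 7 tested IGF axis genes and the pathway genes chosen by rule, coloured by list; open symbols mark genes at the floor in one line, whose fitted value depends on the prior count. Igfbp4, Igfbp3, Irs2, Igf1r and Igf2r lie left of 0 and Irs1 and Insr right of it, and all 5 growth hormone input genes shown lie right of it.

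Markers of other cell types were followed beside these results. The summed level of the fibroblast list was between 1.54 and 4.38 CPM in J110 and between 1336 and 1480 in SSM3, where nearly all of it was Dcn. Dcn had 0, 1 and 12 counts in J110, while Col1a2 and Lum of the same list were at 0 in every library. Col1a1 had 5, 6 and 5 counts in J110 and 0 in SSM3, and Col3a1 had 0, 3 and 0 in J110 and 0 in SSM3. Pdgfra had 3, 1 and 4 counts in J110 and 2, 9 and 2 in SSM3. The endothelial list was at 158 to 181 CPM in J110 and 0 to 0.425 in SSM3 and consisted mainly of Cdh5. Tie1 was at 0 in every library. Pecam1 had 3, 0 and 4 counts in J110 and 1, 0 and 0 in SSM3, and Kdr had 8, 11 and 6 in J110 and 0 in SSM3. The adipocyte list was at 5.98 to 6.72 CPM in J110 and 0 to 0.637 in SSM3, all of it Fabp4, with Adipoq, Plin1 and Lep at 0. The leukocyte and macrophage list was at 29.0 to 35.0 CPM in J110 and 14.7 to 16.99 in SSM3, of which Csf1r made up most in SSM3, at 14.2 CPM against 1.42 for Cd68. Csf1r was at 14.3 CPM in J110 and did not pass the threshold (log2 fold change -0.011), and it shares 873 exon bases with Hmgxb3 on the opposite strand, which had 61, 73 and 68 counts in SSM3 as Csf1r did, so its reads cannot be told apart from those of Hmgxb3. Cd68 was at 18.5 CPM in J110, a log2 fold change of -3.70, with Adgre1 at 0 in every library and Ptprc at 0 in all but SSM3 replicate 2, which had 2 counts. The part of such cells in the levels of Igf2, Igfbp3, Igfbp4 and the other genes was not tested.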

How the data were processed

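RNA of 3 biological replicates each of J110 and SSM3 cells was made into QuantSeq 3′ libraries. Per the submitters' processing notes and the study's methods, the authors used bcl2fastq 2.17.1.14, cutadapt 2.1, HISAT2 2.0.4 with mm10 and featureCounts of Subread 2.0.0, and deposited raw counts without normalisation. The strand setting and the handling of reads over several genes are not given in the sources used here. Of 52636 genes, 99.6% matched the GENCODE M21 annotation of GRCm38, which gave symbols and coordinates.

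After filterByExpr and TMM scaling, counts went into edgeR's quasi-likelihood test (version 4.0.16, R 4.3.3) with Benjamini-Hochberg adjustment over 12284 genes and a threshold of 0.05. CPM used TMM-scaled totals (factors 0.920 to 1.07). The standard error was the size of the log2 fold change divided by the square root of F. TMM put the median log2 fold change at -0.014, whereas library totals without TMM put it at 0.16, a shift shared by each gene. The floor is 3 counts per library: where no library of a line exceeded it, the fold is a bound. Floors and counting intervals cover counting error only. Replicates differed by more than sampling noise (chi-square per degree of freedom 2.21 to 5.62). Ratios were tested with an exact permutation test.

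The members, pathway lists and tests were chosen with earlier results of these data known. Named pathway genes are, per list, the 3 tested genes with the highest mean level and the 4 with the largest change past the threshold. Mtor, Ghr, Airn, the genes that share exons with a pathway or marker gene, and the untested or floor genes were named outside that rule, after their values were seen. Stray counts from the other line were measured on genes with at least 100 CPM in the other line and at most 5 counts in the other 2 libraries of the same line. Upstream sequences and motif shares are from RefSeq (GRCm38.p6), in which 9 of the 10 genes had an entry, all but Insr. Alternatives covered DESeq2 (1.42.0), limma-voom (limma 3.58.1), other scalings, filters and thresholds, thinning, a replicate block and leaving out libraries. The test was checked on simulated data. Results of some genes are not reported here. The other cell lines and assays of the study were not analysed here.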

Additional observations from a re-analysis of the deposited data

How the results depend on the processing

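All 7 tested members kept their direction under every alternative that tested them, and their side of the threshold under all but 1. Asking for a change above 2-fold (glmTreat) left 4 members, 30 pathway genes and 4272 genes past the threshold, 2094 of them higher and 2178 lower in SSM3, and Igf2r, Insr and Irs1 no longer passed (adjusted p 0.220 for Igf2r and 0.339 for Insr, from edgeR). A minimum of 10 counts in every library removed Igfbp3 and Igfbp4, so 5 members were called, and a minimum of 1 count in any library tested all 10 and called 10. Over the 75 single genes followed, 1354 values kept their direction and their side of the threshold, 41 lost the threshold and 7 changed sign. The changes of sign, none of them in a called gene, were Eif4ebp1 at 0.061 and Csf1r at 0.17 with library size only, Csf1r at 0.00999 with at least 1 count in any library and above 0 without J110 replicate 2, SSM3 replicate 1 or SSM3 replicate 3 (range -0.12 to 0.079 over single libraries), and Ghr at -0.013 without both J110 replicate 3 and SSM3 replicate 2 (up to 0.39 without SSM3 replicate 3 alone), an alternative chosen after seeing the data, as was the fit without a filter that leaves out single libraries. Without both, 8881 genes, 7 members and 47 pathway genes were called. Same-numbered libraries correlated at 0.013, 0.016 and 0.028, each library best with its own number. These values are small and the labels do not say that a number marks a shared day, so the main fit did not take the numbers as pairs. With the replicate number as a block 9481 genes, 7 members and 48 pathway genes were called. With 0.579 to 0.934 CPM on average in SSM3, the levels of Igfbp3 and Igfbp4 there, and all values of Igf1, Igfbp2 and Igfbp5, are limited by depth.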
